A study of Homo sapiens with 6 samples.

Results

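Integrins are the cell-surface receptors through which cells hold on to the extracellular matrix, and this account covers their chains and the proteins that tie them to the actin cytoskeleton. The set was fixed by gene symbol: 34 genes were named, 19 of them integrin chains and 15 adaptors or kinases of focal adhesions. Of the 34, 33 were listed among the 16832 gene symbols of the deposited tables, 25 of these passed the expression filter (FPKM of at least 1 in 3 or more of the 6 libraries) and 8 lay under it; ITGA8 was not analysed here. The cells were U251, an established human glioma line of wild-type genotype. Treated cells were kept with SLCDS, a combination of small molecules not itemised in the labels, for 18 days (3 libraries), and control cells received PBS without it (3 libraries). No culture time is given for the control, so time in culture and treatment cannot be told apart. The labels do not say whether libraries of 1 group came from separate cultures, so p-values measure only the spread between these libraries. The title speaks of neuronal-like cells, and the comparison asks how these genes differ between treated and untreated cells.

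An integrin is a pair of 1 alpha and 1 beta chain, and the pair decides which matrix protein is bound. Inside the cell, talin and kindlin bind the beta tail and switch the receptor on, a complex of ILK, PINCH and parvin sits on the same tail, vinculin, filamin, zyxin and tensin link the site to actin, and the kinases FAK and SRC with the docking proteins paxillin and p130Cas carry signals from it. In glioma these receptors are known for their part in invasion along vessels and through brain matrix. Beta 1 is shared by many alpha chains, beta 4 pairs with alpha 6 alone in hemidesmosomes, and beta 3, 5 and 8 pair with alpha V.

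Levels are in FPKM, a unit that divides fragments by the length of the transcript and the depth of the library, which allows levels of different genes to be set side by side. Depth, read from the spacing of low values, was about 16300000 to 17200000 fragments per library, and a transcript of 2000 nucleotides at 1 FPKM would then have 32.6 to 34.4 fragments. Of the glioma markers VIM, NES and SOX2 stood at 201 FPKM or more in every library. Over all libraries only GFAP of 6 astrocytic glioma markers passed the test, being lower in SLCDS, and without control replicate 3 GFAP, SOX2 and EGFR were lower and NES and S100B higher. Control replicate 3 stood apart, with a Pearson correlation across genes of 0.9765 and 0.9767 with the other controls against 0.9969 between those. It gave the lowest value of the 6 libraries for 15 of the 25 tested members (60%), against 35.6% of all tested genes, and the highest for 3 (12%), against 37.2%. Across the 25 members its log2 deviation from the other controls had a Spearman correlation of -0.69 with transcript length and 0.77 with GC content, and across 11275 tested genes of -0.73 and 0.55; these describe 1 library over genes and carry no test. For the members, values without control replicate 3 are given wherever they change a call.

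Across all 6 libraries 4 members rose in SLCDS, the alpha chain genes ITGA7 and ITGA4, the beta chain gene ITGB1 and the tensin gene TNS3, and 1 fell, the beta chain gene ITGB4 (limma, adjusted p under 0.05 over 11506 tested genes). The 4 are 16% of 25 tested members, where 4.28% of all tested genes rose, and the 1 is 4% of them, where 1.82% of all tested genes fell; both directions together, 5 of 25 (20%) stand beside 6.09%. ITGA4 passed the filter only through its SLCDS libraries, and leaving it out 3 of 24 (12.5%) rose. Counted without a filter, the FPKM of all SLCDS libraries lay above all controls for 12 of the 33 listed members (36.4%), against 14.4% of all 16832 genes, and below all controls for 3 (9.09%), against 10.8%. With control replicate 3 left out these counts were 15 (45.5%), against 23.7%, and 9 (27.3%), against 21.6%. Without control replicate 3 the test called 9 of 25 members higher (36%) and 3 lower (12%), where it called 16.1% of all genes higher and 11.7% lower, and 12 of 25 (48%) in either direction, against 27.8%. With each library's trend over transcript length and GC content removed, 7 of 25 rose (28%) and 2 fell (8%), where 9.24% and 8.71% of all genes did. In bulk RNA fewer cells of a type and less RNA per cell cannot be told apart.

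**Figure D1:**
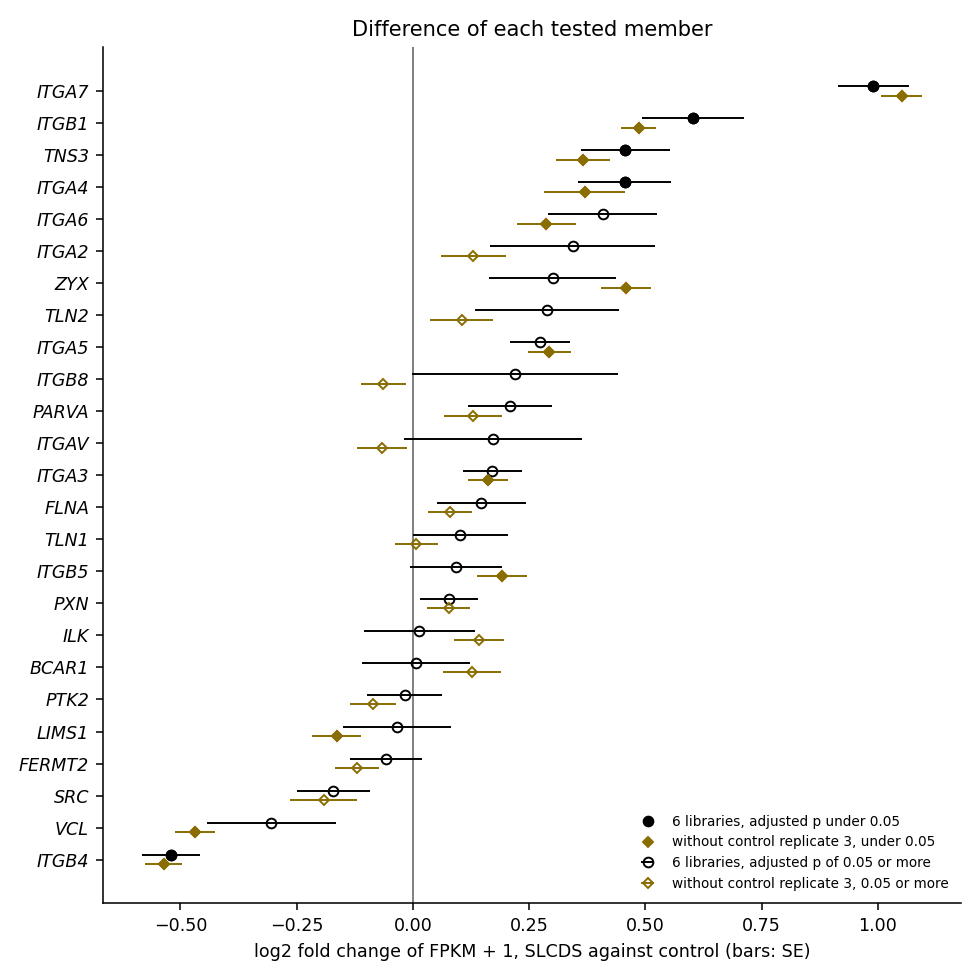
Log2 fold change of FPKM + 1, SLCDS against control, for the 25 tested members, with bars of 1 SE. Black circles use all 6 libraries and brown diamonds leave out control replicate 3, and filled symbols mark an adjusted p under 0.05. ITGA7 lies farthest to the right at 0.99 and ITGB4 farthest to the left at -0.52, and both are filled in both fits.

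ITGB1 encodes the beta 1 chain, the common partner of the collagen, laminin and fibronectin receptors, and was the most abundant integrin gene in every library. It stood at 151.3, 150.0 and 155.6 FPKM in SLCDS replicates 1 to 3 and at 109.6, 107.4 and 84.9 FPKM in control replicates 1 to 3. Every SLCDS library was above every control, and control replicate 3 was the lowest. The mean went from 101 ± 13.6 FPKM (SD, n = 3) to 152 ± 2.95 FPKM, a ratio of 1.51 (log2 fold change 0.60, SE 0.11; limma, adjusted p = 0.0221). Without control replicate 3 the ITGB1 fold change was 0.49 and the limma adjusted p 1.04e-05. The call was lost when SLCDS replicate 1, 2 or 3 was left out (limma, adjusted p = 0.132, 0.126 and 0.139) and when libraries were scaled to 1 FPKM sum (0.0674) or quantile normalized (0.0666), with fold changes of 0.59 to 0.64 in those fits. With the replicate number as a block the ITGB1 call was lost too (limma, adjusted p = 0.0544).

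Promoters are shown for the members that rose and have an entry in the RefSeq promoter table. Whether these genes share a regulator was not tested. Of the 34 members 25 matched an entry, and ITGA7 and ITGB4 did not. The 250 bases before each start were searched on both strands for GGAATG (the core bound by TEAD factors), TGANTCA (AP-1), GGGCGG (GC box), CACCTG (an E box) and the CArG box of SRF. In the line below capitals mark the matches.
ITGB1, 250 bases upstream of the start, GRCh38.p14 chr10:32958231-32958480, minus strand: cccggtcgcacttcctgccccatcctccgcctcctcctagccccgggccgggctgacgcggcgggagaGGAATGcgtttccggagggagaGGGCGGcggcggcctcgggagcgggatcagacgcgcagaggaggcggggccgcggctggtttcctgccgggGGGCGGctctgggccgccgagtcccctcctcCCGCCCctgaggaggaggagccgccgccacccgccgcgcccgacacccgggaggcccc
The ITGB1 window holds 1 GGAATG match, which begins at position -182 from the start, and 3 GC boxes, which begin at -160, -89 and -58, the last of them on the other strand. Of all 35116 promoters listed there, 11.9% hold GGAATG, 42.6% a GC box, 17.5% CACCTG, 6.57% TGANTCA and 1.16% a CArG box in such a window. Among the 25 members' windows 4 hold GGAATG, 15 a GC box, 4 CACCTG, 1 TGANTCA (BCAR1) and 1 a CArG box (FLNA). These 25 are not the 25 tested members, since they include ITGA8, ITGA10, ITGA11 and TNS1, among others. For each member the first entry was used, while all 35116 entries were counted for the background. Where a gene has several entries the shares are therefore not like for like. The ITGB1 window is 78.4% G or C with 32 CpG dinucleotides.

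Of the laminin receptors ITGA7 had the largest fold change; it encodes the alpha 7 chain, known best as the laminin receptor of muscle. ITGA7 stood at 37.9, 36.0 and 36.3 FPKM in the SLCDS libraries and at 17.2, 17.2 and 19.7 FPKM in the controls. The groups did not overlap, and here control replicate 3 was the highest control. The ratio of means was 2.04, from 18.0 ± 1.42 to 36.7 ± 1.04 FPKM (SD, n = 3; log2 fold change 0.99, SE 0.08; limma, adjusted p = 0.000733). ITGA7 passed in all 20 other settings tried, with fold changes of 0.96 to 1.05. METTL7B, the neighbouring gene, was looked at after its values were known. It shares 1% of the exon bases of ITGA7 in GENCODE release 29, and rose from 4.78 ± 1.49 to 15.7 ± 1.79 FPKM.

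ITGA3 and ITGA6, the other laminin-binding alpha chains, did not pass over all libraries. ITGA3 stood at 42.3, 41.5 and 44.1 FPKM in SLCDS and at 38.6, 37.4 and 37.3 FPKM in control (log2 fold change 0.17; limma, adjusted p = 0.205). ITGA6 stood at 10.5, 11.3 and 11.0 FPKM in SLCDS and at 9.25, 8.29 and 6.59 FPKM in control (log2 fold change 0.41; limma, adjusted p = 0.104). Neither gene's groups overlapped, and both were higher without control replicate 3 (limma, adjusted p = 0.0199 for ITGA3 and 0.00768 for ITGA6). The summed level of the 3 laminin-binding alpha chains was 90.7, 88.8 and 91.3 FPKM in SLCDS and at 65.1, 62.9 and 63.6 FPKM in control. The group means stood at a ratio of 1.41, and the control SD was 1.11 FPKM, or 6.23 FPKM with libraries scaled to 1 FPKM sum.

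ITGB4 encodes the beta 4 chain, the laminin receptor partner of alpha 6 with a long tail that binds plectin. It was the only tested member that fell, at 39.5, 40.9 and 41.0 FPKM in SLCDS against 59.0, 59.2 and 57.3 FPKM in control. The 3 controls, control replicate 3 included, lay close together and well above all SLCDS libraries. The mean went from 58.5 ± 1.05 to 40.5 ± 0.862 FPKM (SD, n = 3; log2 fold change -0.52, SE 0.06; limma, adjusted p = 0.00380). ITGB4 passed in 19 of 20 other settings, the exception being without SLCDS replicate 1 (limma, adjusted p = 0.0507). ITGB1 and ITGB4 thus moved in opposite directions, and the ratio of their FPKM was 3.83, 3.66 and 3.80 in SLCDS and 1.86, 1.82 and 1.48 in control.

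Because epithelial cells carry much beta 4, markers of that cell type are given beside it. EPCAM and CDH1 lay under 1 FPKM in every library. The basal keratin gene KRT5 stood at 8.28 FPKM in SLCDS replicate 3, at 0.372 and 0.0810 FPKM in the other SLCDS libraries and at 1.32 to 1.76 FPKM in control, and KRT14 at 4.95 FPKM against 0.182 and 0.0369 in SLCDS and 0.714 to 1.01 in control. The summed level of the 4 epithelial markers ranged from 0.374 to 14.1 FPKM in SLCDS and from 2.31 to 3.02 FPKM in control. Both keratins thus lay below all controls in SLCDS replicates 1 and 2 and above them in SLCDS replicate 3, and ITGB4 in those libraries was at 39.5, 40.9 and 41.0 FPKM. The part of such cells in the ITGB4 result was not tested.

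**Figure D2:**
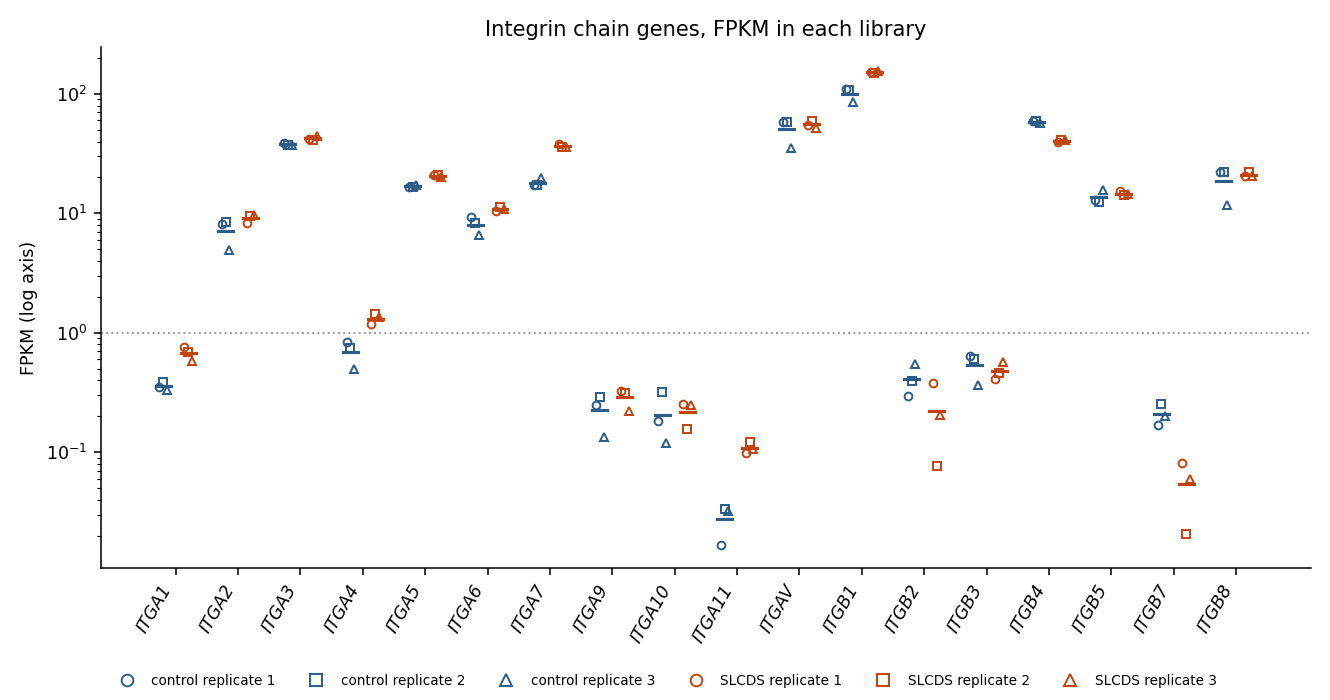
FPKM (log axis) of the 18 integrin chain genes that are members and listed in the files, for control (blue) and SLCDS (red) libraries. Symbols give the replicate number, bars the group mean, and the dotted line marks 1 FPKM. ITGA1, ITGA3, ITGA4, ITGA5, ITGA6, ITGA7, ITGA11 and ITGB1 separate upwards in SLCDS, and ITGB4 and ITGB7 downwards. Control replicate 3 (blue triangle) drops below the other controls for ITGA2, ITGAV and ITGB8.

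Receptors of the RGD motif, the short peptide of fibronectin and vitronectin that integrins grip, are built on ITGA5 and ITGAV. ITGA5, the fibronectin receptor chain, stood at 20.9, 20.8 and 20.0 FPKM in SLCDS and at 16.7, 16.5 and 17.4 FPKM in control. All SLCDS libraries were above all controls, and the gene came close to the threshold (log2 fold change 0.27, SE 0.06; limma, adjusted p = 0.0533). ITGA5 passed in 5 of 20 other settings, among them without control replicate 3 (limma, adjusted p = 0.00121). ITGAV was the most abundant alpha chain gene in SLCDS, at 55.3, 59.4 and 52.0 FPKM, and stood at 57.8, 58.5 and 35.0 FPKM in control. Control replicates 1 and 2 lay within the SLCDS range and control replicate 3 far below it (log2 fold change 0.17; limma, adjusted p = 0.706, and -0.07 with 0.395 without control replicate 3).

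Of the beta partners of alpha V, beta 3, 5 and 8 did not pass over all libraries. ITGB8, whose pair with alpha V releases active TGF-beta, stood at 20.6, 22.0 and 20.6 FPKM in SLCDS and at 22.1, 22.0 and 11.8 FPKM in control, so it repeated the pattern of ITGAV (log2 fold change 0.22, and -0.06 without control replicate 3; limma, adjusted p = 0.671 and 0.363). The ratio of ITGAV to ITGB8 FPKM was 2.52 to 2.69 in SLCDS and 2.61 to 2.97 in control. ITGB5, a vitronectin receptor chain, stood at 15.3, 14.2 and 14.4 FPKM in SLCDS and at 12.9, 12.5 and 15.8 FPKM in control. Here control replicate 3 was the highest library, and without it ITGB5 was higher in SLCDS (log2 fold change 0.19; limma, adjusted p = 0.0245, against 0.693 with all libraries). ITGB3 lay under the filter at 0.410 to 0.569 FPKM in SLCDS and at 0.367 to 0.641 FPKM in control.

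Collagen receptors were carried by ITGA2, at 8.36, 9.59 and 9.62 FPKM in SLCDS and at 8.09, 8.51 and 4.96 FPKM in control (log2 fold change 0.34; limma, adjusted p = 0.371). Its ranges overlapped, and no setting called it. The other collagen-binding chains lay under 1 FPKM in every library. ITGA1 stood at 0.764, 0.692 and 0.586 FPKM in SLCDS against 0.349, 0.389 and 0.335 FPKM in control, ITGA11 at 0.0980 to 0.122 against 0.0169 to 0.0338 FPKM, and ITGA10 at 0.157 to 0.253 against 0.120 to 0.319 FPKM. ITGA1 and ITGA11 did not overlap between groups, and a fit with no filter on low values called both higher (limma, adjusted p = 0.0211 and 0.0266). The log2 fold changes in that fit were 0.31 (SE 0.05) and 0.11 (SE 0.02), and values this low rest on few fragments. ITGA1 also shares 4.4% of its exon bases with PELO, and the part of that gene's fragments in the ITGA1 values was not tested.

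ITGA4, a receptor chain for VCAM1 and fibronectin, was scarce but higher in SLCDS, at 1.18, 1.43 and 1.34 FPKM against 0.842, 0.743 and 0.497 FPKM in control. The groups did not overlap, and no control library reached the filter's 1 FPKM, so a gene with this pattern had to differ to be tested at all. The log2 fold change was 0.46 (SE 0.10; limma, adjusted p = 0.0433), and the ratio of mean FPKM was 1.90. ITGA4 passed in 10 of the 16 other settings that kept it, and was lost without control replicate 1 (limma, adjusted p = 0.0591) or control replicate 2 (0.101). The ITGA4 call was also lost with the replicate number as a block (limma, adjusted p = 0.0936). ITGA9, its closest relative, stood at 0.222 to 0.325 FPKM in SLCDS and at 0.135 to 0.289 FPKM in control. The 250 bases before the start of ITGA4 held none of the 5 motifs.
ITGA4, 250 bases upstream of the start, GRCh38.p14 chr2:181457136-181457385, plus strand: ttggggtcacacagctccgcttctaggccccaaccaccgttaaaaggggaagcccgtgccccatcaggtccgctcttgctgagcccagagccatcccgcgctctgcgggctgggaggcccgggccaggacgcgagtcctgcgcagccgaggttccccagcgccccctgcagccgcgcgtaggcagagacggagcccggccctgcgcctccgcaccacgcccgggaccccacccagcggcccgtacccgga

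The leukocyte beta chain genes ITGB2 and ITGB7 lay under 1 FPKM in every library. ITGB2, the beta chain of leukocyte integrins, stood at 0.0769 to 0.378 FPKM in SLCDS and at 0.293 to 0.544 FPKM in control. ITGB7, the gut-homing partner of alpha 4, was at 0.0818, 0.0208 and 0.0601 FPKM against 0.169, 0.254 and 0.203 FPKM, with no overlap, and was lower in the fit with no filter (limma, adjusted p = 0.0326). ITGB7 shares 51.4% of its exon bases with ZNF740, and whether counting used strand is not known from the labels, so its fragments cannot be told from those of that gene. Of 8 leukocyte and microglia markers 7 lay under 1 FPKM in every library, among them PTPRC and ITGAM, and the sum of the 8 ranged from 0.800 to 1.43 FPKM in SLCDS and from 1.43 to 1.97 FPKM in control.

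In terms of balance, the summed alpha chains stood at 178 ± 2.92 FPKM in SLCDS and at 140 ± 15.4 FPKM in control (SD, n = 3 each), and the summed beta chains at 229 ± 2.80 and 193 ± 18.9 FPKM. These sums cover the members only. They leave out, among others, ITGA2B, at 1.23 to 1.43 FPKM in SLCDS and at 1.70 to 2.15 FPKM in control. ITGB1 made up 66.5%, 65.9% and 66.9% of the beta chain sum in SLCDS and 53.5%, 53.1% and 49.7% in control, while ITGB4 made up 17.3% to 18.0% and 28.8% to 33.5%. ITGA7 made up 11.5%, 11.6% and 16.1% of the alpha chain sum in control and 21.3%, 19.8% and 20.7% in SLCDS. ITGAV held 38.7%, 39.5% and 28.7% in control and 31.1%, 32.8% and 29.6% in SLCDS, so its share overlapped between the groups through control replicate 3. These shares were not tested, since the members were chosen with results known.

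**Figure D3:**
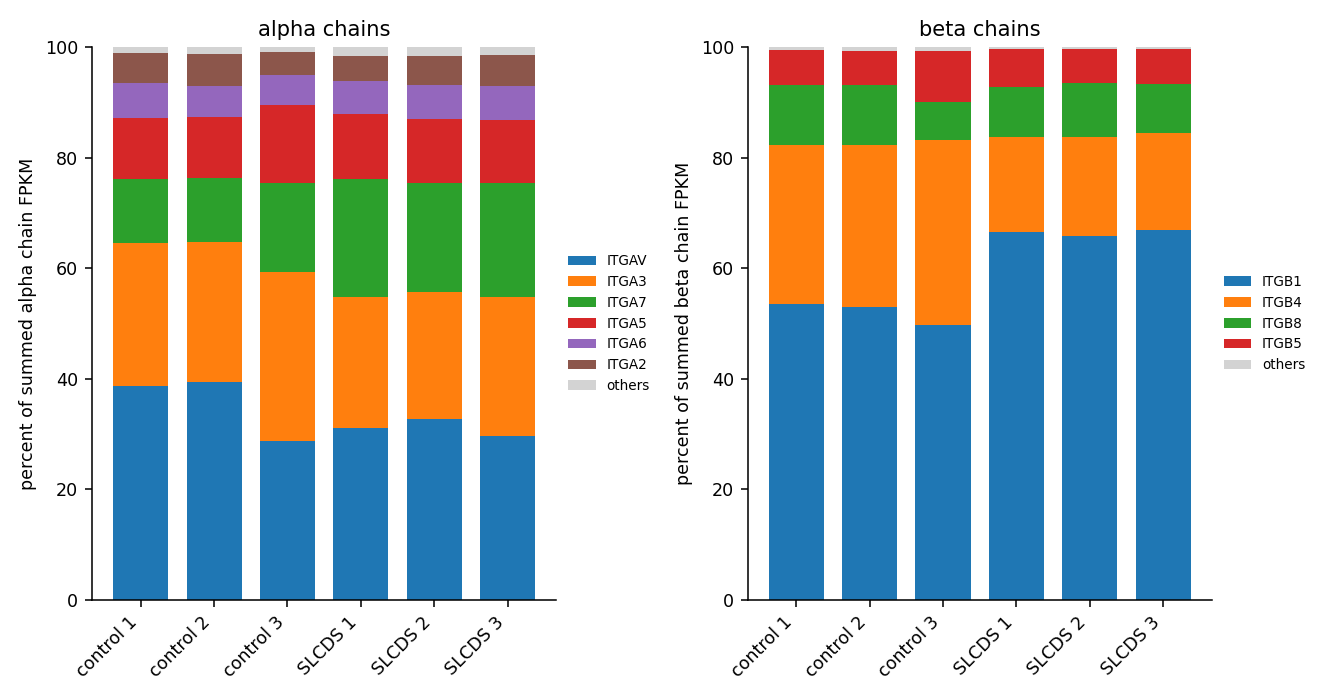
Share (percent) of each alpha chain gene in the summed FPKM of the member alpha chains, and of each beta chain gene in that of the member beta chains. Stacked bars show each of the 6 libraries, and chains under 1% are pooled in grey. The ITGB1 part is 65.9% to 66.9% in SLCDS and 49.7% to 53.5% in control, and the ITGB4 part is 17.3% to 18.0% and 28.8% to 33.5%.

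The genes that switch integrins on did not pass the test. Talin 1, encoded by TLN1, binds the beta tail and pulls it towards actin, and stood at 124, 135 and 132 FPKM in SLCDS and at 133, 126 and 106 FPKM in control (log2 fold change 0.10; limma, adjusted p = 0.668). TLN2, its less abundant paralog, stood at 4.94, 5.41 and 5.43 FPKM against 4.79, 4.85 and 2.97 FPKM, without overlap (log2 fold change 0.29; limma, adjusted p = 0.389). FERMT2, which encodes kindlin 2, stood at 15.7, 15.4 and 15.2 FPKM against 17.0, 16.7 and 14.7 FPKM (log2 fold change -0.06; limma, adjusted p = 0.759). Leaving out control replicate 3 called none of the 3, and the TLN1 fold change was then 0.01.

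The complex of ILK, PINCH and parvin, which anchors actin at the beta tail, likewise had no call over all libraries. ILK, the pseudokinase at its centre, stood at 44.3, 39.1 and 41.1 FPKM in SLCDS and at 36.9, 38.1 and 49.2 FPKM in control, with a log2 fold change of 0.01 (limma, adjusted p = 0.970). PARVA, which encodes alpha-parvin, stood at 5.08, 4.96 and 4.94 FPKM against 4.53, 4.43 and 3.64 FPKM, without overlap (log2 fold change 0.21; limma, adjusted p = 0.277). LIMS1, which encodes PINCH1 and has near-identical copies in the genome that can share its fragments, stood at 10.1, 10.2 and 9.72 FPKM against 11.3, 11.3 and 8.44 FPKM. LIMS1 was lower without control replicate 3 (log2 fold change -0.16; limma, adjusted p = 0.0438, against 0.907 with all libraries).

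Of the linkers to actin, TNS3 rose. TNS3, a tensin that binds the beta tail and actin at maturing adhesions, stood at 7.67, 8.05 and 7.69 FPKM in SLCDS and at 5.83, 5.83 and 4.65 FPKM in control, with all SLCDS libraries above all controls. The log2 fold change was 0.46 (SE 0.10; limma, adjusted p = 0.0367) and 0.37 without control replicate 3 (0.00134). TNS3 passed in 11 of 20 other settings and missed the threshold when any 1 of the other 5 libraries was left out, with limma adjusted p values of 0.176, 0.198 and 0.170 for SLCDS replicates 1 to 3 and 0.0696 and 0.0714 for control replicates 1 and 2. The TNS3 call was also lost with the replicate number as a block (limma, adjusted p = 0.0693). TNS1, its relative, stood at 0.0360 to 0.114 FPKM in all libraries. The TNS3 window, less rich in G and C at 50.4%, held none of the 5 motifs.
TNS3, 250 bases upstream of the start, GRCh38.p14 chr7:47582587-47582836, minus strand: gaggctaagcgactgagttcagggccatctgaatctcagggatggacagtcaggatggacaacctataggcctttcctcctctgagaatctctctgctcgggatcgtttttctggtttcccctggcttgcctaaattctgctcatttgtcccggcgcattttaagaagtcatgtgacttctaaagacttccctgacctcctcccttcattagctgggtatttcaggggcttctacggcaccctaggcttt

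Vinculin and zyxin, both recruited to adhesions under tension, differed in opposite directions between SLCDS and control replicates 1 and 2. VCL stood at 52.7, 56.3 and 54.8 FPKM in SLCDS and at 77.0, 74.8 and 53.6 FPKM in control. Control replicate 3 lay inside the SLCDS range, and the gene did not pass (log2 fold change -0.30; limma, adjusted p = 0.306), but without that library VCL was lower (-0.47; limma, adjusted p = 3.24e-05), as with the length and GC trend removed (-0.40; 0.00319). VCL shares 16.6% of its exon bases with AP3M1. ZYX stood at 42.7, 41.7 and 46.8 FPKM in SLCDS and at 32.0, 31.1 and 44.1 FPKM in control, again with control replicate 3 inside the SLCDS range (log2 fold change 0.30; limma, adjusted p = 0.305). Without control replicate 3 ZYX was higher (0.46; limma, adjusted p = 0.000178), and also with the trend removed (0.34; 0.00319). FLNA, which encodes the actin crosslinker filamin A and was the most abundant member, stood at 246, 271 and 268 FPKM in SLCDS and at 249.5, 245 and 215 FPKM in control (log2 fold change 0.15; limma, adjusted p = 0.487).

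Kinases and docking proteins of the adhesion differed little. PTK2, which encodes focal adhesion kinase, stood at 13.8, 14.1 and 13.5 FPKM in SLCDS and at 14.8, 14.6 and 12.6 FPKM in control, with a log2 fold change of -0.02 that turned to 0.01 when libraries were scaled to 1 FPKM sum. SRC, the tyrosine kinase that binds it, stood at 4.26, 4.90 and 4.36 FPKM against 5.33, 5.23 and 5.02 FPKM, all controls being above all SLCDS libraries, without passing (log2 fold change -0.17; limma, adjusted p = 0.309, and 0.0749 without control replicate 3). PXN, which encodes the scaffold paxillin, stood at 19.6, 19.3 and 20.1 FPKM against 18.5, 18.8 and 18.6 FPKM, apart by 0.08 on the log2 scale (SE 0.06; limma, adjusted p = 0.586). BCAR1, which encodes the docking protein p130Cas, stood at 13.5, 12.8 and 14.1 FPKM against 12.9, 11.6 and 16.0 FPKM (log2 fold change 0.01; limma, adjusted p = 0.983).

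**Figure D4:**
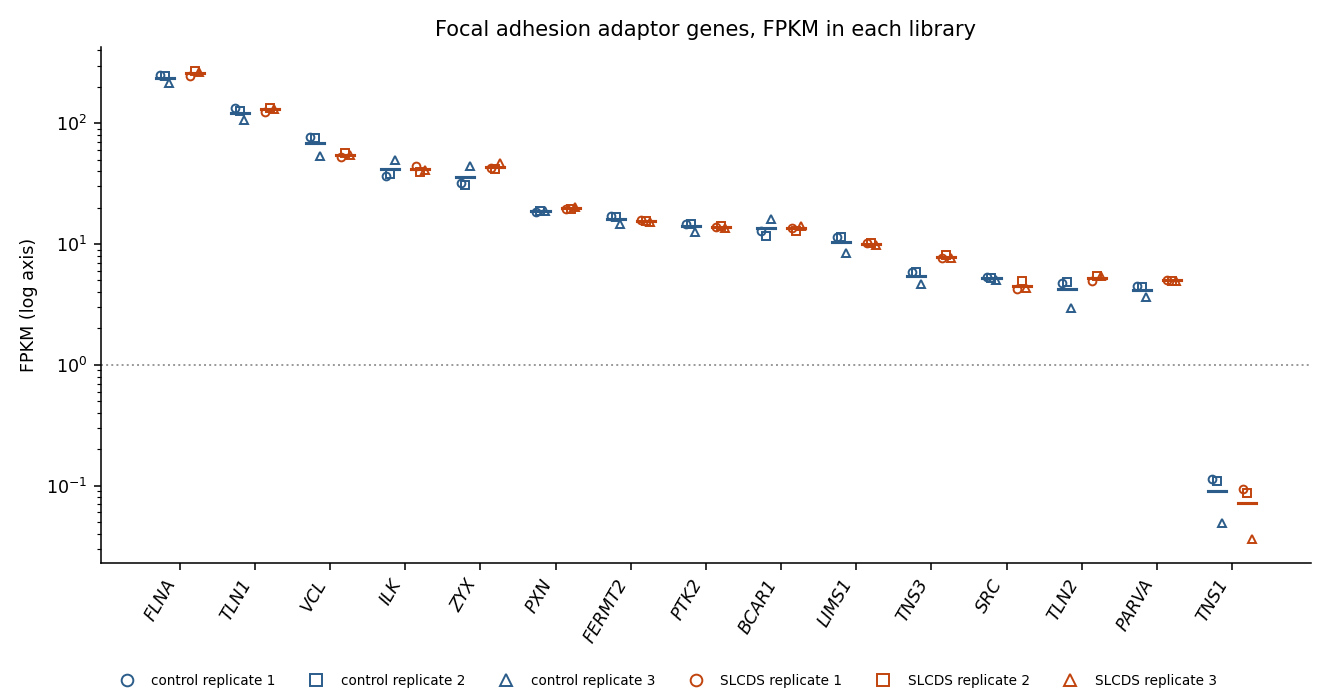
FPKM (log axis) of the 15 adaptor and kinase genes, ordered by mean level, for control (blue) and SLCDS (red) libraries, with the replicate number by symbol and the group mean as a bar; the dotted line marks 1 FPKM. TNS3, TLN2, PARVA and PXN separate upwards in SLCDS and SRC downwards. For VCL and ZYX control replicate 3 (blue triangle) lies with the SLCDS libraries.

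Genes around the core of the adhesion were read from 6 further lists, chosen with earlier results of these data known, so their shares are description only. Of 29 tested integrin ligands 8 rose (27.6%) and 2 fell (6.90%), against 4.28% and 1.82% of all tested genes. Their median log2 fold change was 0.27, against 0.00036 over all tested genes. The leukocyte ligand ICAM1 went from 1.35 ± 0.258 to 4.45 ± 0.269 FPKM, CCN2, a matricellular integrin ligand, from 8.09 ± 0.536 to 19.8 ± 0.799 FPKM, and TGFBI from 8.42 ± 1.68 to 14.7 ± 1.07 FPKM. VCAM1, the ligand of alpha 4 integrins, fell to 4.60 ± 0.201 FPKM from 16.9 ± 3.45 FPKM (by limma the log2 fold change was -1.66 and the adjusted p 0.001), the direction opposite to that of ITGA4. The other risers, named outside the rule, were SPP1, COL4A1, COL4A2, CCN1 and MFGE8, and COL6A1 fell. MFGE8 lay just under the threshold (limma, adjusted p = 0.0498) and passed in 6 of 20 other settings. ICAM1, CCN2, COL4A1, COL4A2 and VCAM1 passed whichever library was left out, while TGFBI, SPP1, CCN1, MFGE8 and COL6A1 missed the threshold without any 1 of the SLCDS replicates (limma, adjusted p = 0.0821 to 0.270) and, but for TGFBI without control replicate 1, without control replicate 1 or 2 (0.0597 to 0.152). Without control replicate 3, 15 ligands were higher (51.7%, against 16.1% of all genes) and 5 lower (against 11.7% of all genes), with a median of 0.14.

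Among 20 tested integrin regulators and tetraspanins 4 rose and 1 fell (20% and 5%), against 4.28% and 1.82% of all tested genes. The urokinase receptor gene PLAUR went from 4.75 ± 0.246 to 7.88 ± 0.266 FPKM and the tetraspanin gene CD82 from 9.39 ± 1.57 to 15.4 ± 2.00 FPKM. The syndecans, matrix co-receptors of integrins, split: SDC1 rose from 7.74 ± 0.822 to 11.9 ± 1.35 FPKM and SDC2 fell from 97.7 ± 7.95 to 61.6 ± 0.535 FPKM. CAV1, the caveolin gene, named outside the rule, rose from 28.1 ± 0.367 to 39.4 ± 0.774 FPKM. PLAUR and SDC2 passed whichever library was left out; CAV1 missed the threshold without any 1 of the SLCDS replicates (limma, adjusted p = 0.0531 to 0.0623), and CD82 and SDC1 without any 1 of those or of control replicates 1 and 2 (0.0544 to 0.166). With control replicate 3 left out, 9 genes of the list were higher (45%) and 2 lower, against 16.1% and 11.7% of all genes.

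The further adaptors, signalling genes and actomyosin genes had 1 call each over all libraries, close to the background. Without control replicate 3 the adaptors had 6 higher and 6 lower of 23, the signalling genes 2 and 3 of 25, and the actomyosin genes 9 (37.5%) and 3 of 24, beside 16.1% and 11.7% of all genes. Of 23 further focal adhesion adaptors CSRP1 alone rose, from 224 ± 34.8 to 355 ± 19.6 FPKM, and TRIP6 stood at 159 ± 31.5 and 173 ± 4.64 FPKM in control and SLCDS, being called higher in 3 of 20 other settings, among them without control replicate 3 (log2 fold change 0.30; limma, adjusted p = 0.000362). Of 25 signalling genes FYN alone rose, a SRC family kinase, from 48.2 ± 1.95 to 63.1 ± 2.75 FPKM, while the GTPase genes RHOA (log2 fold change -0.02, turning to 0.02 with libraries scaled to 1 FPKM sum) and RAC1 (0.01) did not pass. Of 24 actomyosin genes ACTA2 alone rose, from 2.54 ± 0.465 to 7.49 ± 0.686 FPKM; actin genes are close in sequence and may share fragments, and ACTB and ACTG1 did not pass, though ACTB was higher without control replicate 3 (log2 fold change 0.20; limma, adjusted p = 0.00520). CSRP1 and FYN missed the threshold when any 1 library other than control replicate 3 was left out (limma, adjusted p = 0.0771 to 0.167). Of the 3 tested beta 4 partners, the laminin chain gene LAMB3, whose product is a ligand of alpha 6 beta 4, rose from 5.23 ± 0.214 to 9.87 ± 0.827 FPKM. The plectin gene PLEC and the dystonin gene DST did not pass, DST at 86.6, 84.1 and 32.5 FPKM in control against 55.5, 69.1 and 63.8 FPKM in SLCDS. Without control replicate 3 both were lower, PLEC by limma at -0.17 (adjusted p = 0.0105) and DST at -0.44 (0.00178).

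**Figure D5:**
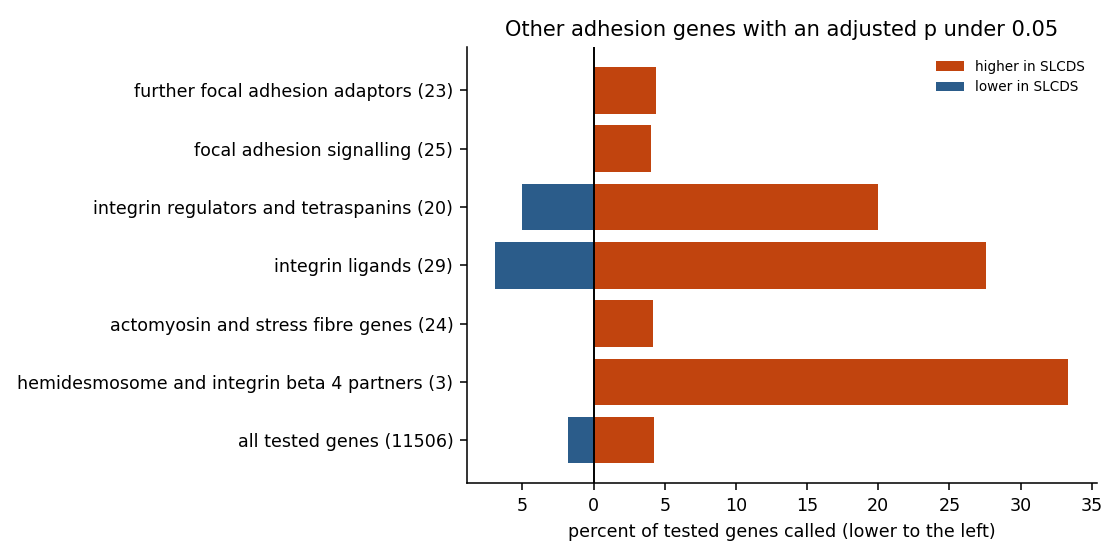
Percent of tested genes called higher (red, to the right) or lower (blue, to the left) in SLCDS at an adjusted p under 0.05, for 6 lists of adhesion genes outside the members and for all tested genes; the number tested is in brackets. Integrin ligands reach 27.6% higher and integrin regulators 20%, against 4.28% of all genes, and the bar of the beta 4 partners stands for 1 gene of 3. The lists were chosen with earlier results of these data known.

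Markers of other adherent cells are given beside these genes, and most of them were not called. Of 7 fibroblast and pericyte markers PDGFRB and ACTA2 rose, and COL1A2 and RGS5 did not pass. PDGFRB stood at 1.66, 1.84 and 1.81 FPKM in SLCDS and at 0.439, 0.300 and 0.339 FPKM in control. It passed the filter only through its SLCDS libraries, so it had to differ to be tested at all. COL1A1 was at 0.592 ± 0.112 FPKM in SLCDS against 1.00 ± 0.139 FPKM in control without overlap. DCN and LUM lay under 1 FPKM in every library, LUM without overlap above the controls. The list's sum, most of it COL1A2 at 365 ± 3.45 FPKM in SLCDS, ranged from 372 to 380 FPKM in SLCDS and at 367 to 399 FPKM in control. Of 5 endothelial markers CDH5 rose, from 1.91 ± 0.634 to 4.81 ± 0.438 FPKM, passing in 16 of 19 other settings. The other 4 lay under 1 FPKM in every library, VWF without overlap below the controls. The endothelial sums were 4.93 to 5.88 FPKM in SLCDS and 2.12 to 3.00 FPKM in control. Their part in the integrin results was not tested.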

How the data were processed

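Total RNA of U251 cells was sequenced in 6 libraries, per the labels' protocols. The authors deposited FPKM values, 1 file per library; which aligner, counter and annotation were used is not given in the sources used here. GRCm38 and mm10, builds of the mouse, appear in the submitters' processing notes although the line is human, so no gene coordinates are printed beside those of RefSeq promoters (GRCh38.p14).

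Groups and replicate numbers came from the titles. From the deposited FPKM, log2(FPKM + 1) was computed, which understates changes of low genes. The 11506 genes reaching 1 FPKM in 3 libraries were fitted with limma (3.58.1, R 4.3.3; eBayes with trend), 2-sided, with Benjamini-Hochberg adjustment over all tested genes; calls need an adjusted p under 0.05. The fit was tested on simulated data. Members, lists and rules were chosen with earlier results of these data known. From each further list the text names up to 4 called genes with the largest fold change, or the 2 most abundant where fewer than 2 were called, and exceptions are named.

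Relative depth came from steps between low FPKM values, and absolute depth from 123 genes with 1 annotated transcript, 44.7% of which fell within a window of 5%. No gene had exactly the same value above 0 in 2 libraries, and none were merged. The median chi-square of abundant genes within groups was 0.98 to 1.29 for pairs without control replicate 3, where counting alone gives 0.45. For the pairs with control replicate 3 it was 18.31 and 18.05. These values rest on the depth estimate and cannot show whether libraries came from separate cultures. Transcript length and GC content came from GENCODE release 29 for 98% of tested genes, and their trends were removed with splines of 4 degrees of freedom. Alternatives were other pseudocounts, filters, scalings, variance priors, library weights, a replicate block and each library left out. Python 3.11.15 was used otherwise.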

Additional observations from a re-analysis of the deposited data

How the results depend on the processing

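ITGA7 passed in each of 20 other settings and ITGB4 in 19. Over all genes 492 rose and 209 fell. With a mean FPKM of at least 5 these counts were 196 and 128, with length and GC trends removed 1042 and 982, with library weights 1845 and 1432 (control replicate 3 had a weight of 0.0652), and with quantile normalization 326 fell. Leaving out 1 library gave 140 to 1842 higher and 56 to 1340 lower, most without control replicate 3, and for members 1 to 9 higher and 0 to 3 lower. Members called higher and lower, 4 and 1 as reported, were 2 and 1 with a mean FPKM of at least 5, 1 and 1 with libraries scaled to 1 FPKM sum (436 and 159 of 11506 genes), 7 and 2 with trends removed, 9 and 4 with library weights, and 6 and 2 with no filter (625 and 208 of 16832 genes). A mean FPKM of at least 1, chosen after seeing the data, gave 4 and 1, where 456 and 198 of all genes were called.

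With the replicate block 346 genes rose and 109 fell, and 1 member rose and 1 fell, the ITGB1, ITGA4 and TNS3 calls being lost (limma, adjusted p = 0.0544, 0.0936 and 0.0693). The titles do not say whether libraries of the same number belong together. Deviations of same-numbered libraries correlated at -0.33, 0.36 and 0.07, and SLCDS replicate 1 correlated best with control replicate 3. The control deviations were taken from a mean that includes control replicate 3, which stood apart, so these values cannot decide whether the numbers pair the libraries.

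Signs turned for members that did not pass. With library weights ITGAV was at -0.064 and ITGB8 at -0.051, and with 1 FPKM sum PTK2 was at 0.010. Leave-one-out ranges were -0.066 to 0.30 for ITGAV, -0.064 to 0.36 for ITGB8, -0.085 to 0.021 for PTK2, -0.062 to 0.14 for ILK, -0.16 to 0.029 for LIMS1 and -0.087 to 0.13 for BCAR1. Of the other genes named, RHOA turned to 0.015 with 1 FPKM sum, 0.038 with quantile normalization and 0.075 with library weights, ACTG1 to 0.0077 with 1 FPKM sum, 0.011 with trends removed and 0.091 with library weights, and DST to -0.13 with trends removed and -0.41 with library weights, where it passed. Leave-one-out ranges were -0.071 to 0.082 for RHOA, -0.077 to 0.12 for RAC1, -0.084 to 0.095 for ACTG1 and -0.44 to 0.25 for DST, which passed without control replicate 3. The cause was not tested. Fold changes of genes under 1 FPKM rest on few fragments.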
